A study of Solanum lycopersicum with 12 samples.

Results

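The C-repeat binding factors (CBFs) and the dehydration-responsive element-binding factors (DREBs) of tomato were followed in leaves 48 h after ultrasound, drought or both. The 6 loci were chosen by a fixed list of identifiers, 3 of them listed as CBF1 (Solyc03g026280), CBF2 (Solyc03g124110) and CBF3 (Solyc03g026270), and 3 listed together as DREB2 or DREB3 type factors (Solyc05g052410, Solyc10g076370 and Solyc06g050520). All 6 were found among the 34075 genes of the table, and all 6 were among the 22157 genes that passed the filter on low counts. The names come from that list. Neither the count table nor the RefSeq gene table at hand paired them with the identifiers, and the RefSeq table matched 0 of the 6.

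Plants of the cultivar Micro Tom, a dwarf tomato, were treated in 4 groups of 3 biological replicates, giving 12 libraries of poly-A RNA from leaves. In US, plants were exposed through air to ultrasound of 30 kHz and 120 W for 5 min at a mean distance of 6 cm. In D, each plant was irrigated with 10 ml of 20% polyethylene glycol (PEG), which lowers the water potential around the roots and stands in for drought. In US + D, the PEG solution followed directly after the ultrasound, and C was the untreated control.

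CBFs and DREBs are transcription factors of the AP2/ERF family. They bind the dehydration-responsive element, also known as the C-repeat, in promoters of genes such as dehydrins that protect cells from loss of water. In Arabidopsis, the CBF genes are switched on quickly and briefly by cold and also by mechanical disturbance, with a daily rhythm, whereas DREB2 genes are switched on by drought, salt and heat.

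The libraries held between 33640280 (US + D 1) and 106829565 (C 2) counts, and 3 of them (US + D 3, C 2 and C 3) held at least 87164190. Levels are given as CPM, i.e., counts per 1000000 counts of the TMM-scaled library, where a count of 0 allows up to 3 counts, i.e., 0.0275 to 0.0877 CPM depending on the library. A list of 5 leaf photosynthesis markers summed to between 8355 and 36820 CPM in the libraries, while the markers listed for ripe fruit reached at most 96.8 CPM in sum, that for flower 5.17 CPM and those for shoot meristem 2.40 CPM. Limits from a count of 0, and intervals of a share of counts, cover counting error only, since no molecular identifiers are stated.

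The 3 CBF genes stand in a row on chromosome 3 of the SL4.0 assembly, all on the plus strand. CBF3 comes first (3699231 to 3699848), then CBF1 (3702349 to 3703245) and CBF2 (3705306 to 3706172), so that the cluster spans 6.94 kb with gaps of 2500 and 2060 bp. CBF2 therefore lies beside the other two, although its identifier is numbered far from theirs. The DREB-type genes are spread over 3 chromosomes, with Solyc05g052410 at 62030408 to 62031607 on chromosome 5, Solyc10g076370 at 58428205 to 58429422 on chromosome 10, and Solyc06g050520 at 30937406 to 30938308 on the minus strand of chromosome 6. None of the 6 overlapped another gene of the table. CBF genes in such clusters resemble each other closely, and reads that match more than 1 of them may have been dropped or divided by the counting, so the level of a single CBF gene is less certain than that of a gene without close copies.

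CBF1 varied over a wide range within each of the 4 groups. It had 9.98, 1.70 and 34.2 CPM in the US libraries, 0.361, 0.608 and 35.3 in those of D and 22.3, 0.702 and 3.52 in those of US + D, against 0.361, 16.7 and 57.1 in those of C. Each group had at least 1 library below 2 CPM, and all groups overlapped. The ratio of the highest to the lowest library was 20.1-fold in US, 97.8-fold in D and 31.7-fold in US + D, against 158-fold in C. In raw counts, the untreated plants alone gave 17, 1827 and 6016 counts. In RNA of whole leaves, fewer cells that express a gene and less RNA of it per cell cannot be told apart. The group means were 15.3 ± 16.9 CPM for US, 12.1 ± 20.1 for D and 8.83 ± 11.7 for US + D, against 24.7 ± 29.2 for C (SD, n = 3 each), so that in each group the SD exceeded the mean.

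CBF2 was high in libraries where CBF1 was high and at or close to 0 in others. It had 0.982, 0.0707 and 11.3 CPM in the US libraries, 0.207, 0 and 8.24 in those of D and 17.0, 0.497 and 3.54 in those of US + D, against 0, 8.10 and 20.4 in those of C. With the library at 0 counts placed at its limit of 3 counts, the highest library was at least 94.9-fold above the lowest in D and at least 319-fold in C. In US + D the ratio was 34.2-fold. Untreated plants thus covered the whole range of CBF2, with 0 counts in C 1, which held 44837873 counts in all, and 2144 counts in C 3, the highest of the 12 libraries.

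CBF3, the shortest of the 3 genes, had 1.87, 0.0471 and 8.76 CPM in the US libraries, 0.0516, 0 and 1.71 in those of D and 15.0, 0.117 and 1.90 in those of US + D, against 0.0425, 0.787 and 4.94 in those of C. Its highest library was US + D 1 with 553 counts, not C 3 as for CBF1 and CBF2. The lowest libraries of US, D and C held 2, 0 and 2 counts, and no ratio was formed from them. In US + D, where the lowest library held 4 counts, the ratio was 128-fold. Here again each group contained both a library below 0.2 CPM and a library of at least 1.71 CPM.

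**Figure D1:**
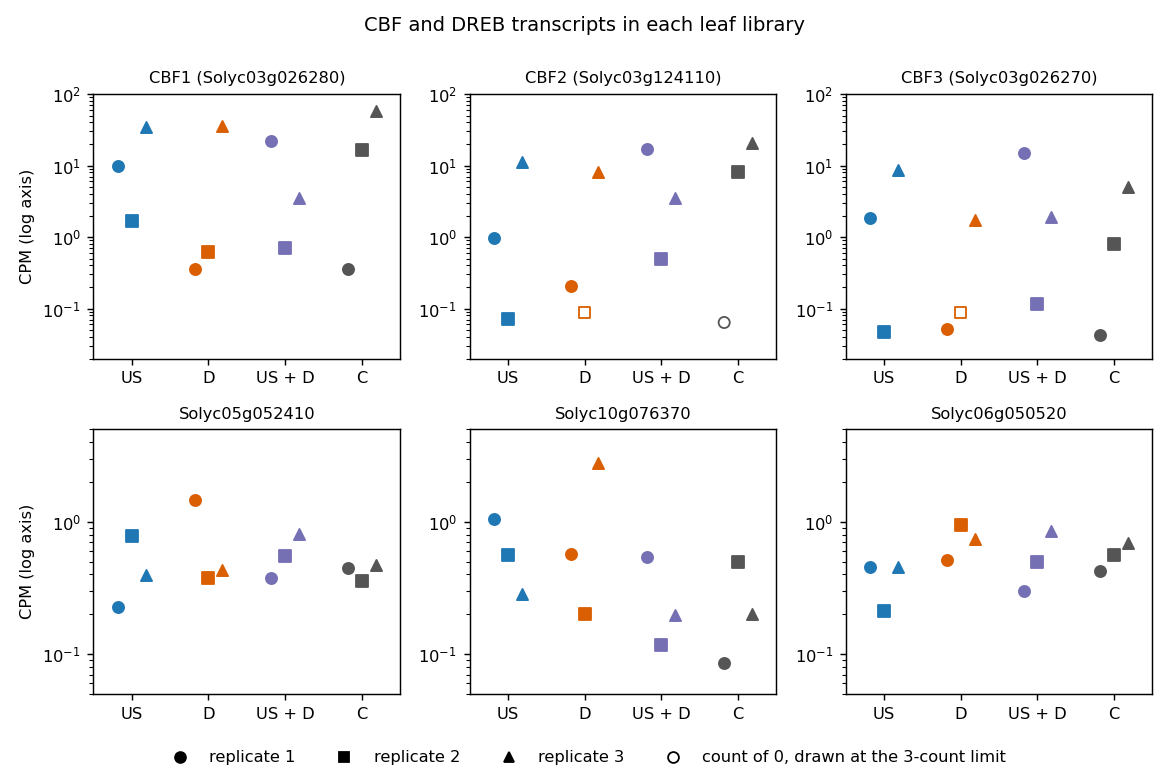
Level of each of the 6 genes in the 12 libraries, in CPM on a log axis, with the groups US, D, US + D and C along the horizontal axis and the replicates as circles, squares and triangles. Each CBF gene (upper row) covers more than a 10-fold range within every group, e.g., CBF1 from 0.361 to 35.3 CPM in D and from 0.361 to 57.1 CPM in C, whereas the DREB-type genes (lower row, another scale) stay between 0.0850 and 2.80 CPM. Open symbols are libraries with 0 counts, drawn at the limit of 3 counts.

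The 3 DREB-type genes were low in all libraries, with 10 to 69 counts of Solyc05g052410, 4 to 116 of Solyc10g076370 and 9 to 73 of Solyc06g050520. Per kb of exon, the mean over the 12 libraries was 0.466 CPM for Solyc05g052410, 0.486 CPM for Solyc10g076370 and 0.615 CPM for Solyc06g050520, compared to 17.0 CPM for CBF1, 6.76 CPM for CBF2 and 4.75 CPM for CBF3. These means placed the DREB-type genes between the 13.0th and the 15.9th percentile of the tested genes, and the CBF genes between the 57.5th and the 84.1st. The means of the CBF genes were carried by their high libraries. Their medians were 7.52 (CBF1), 2.61 (CBF2) and 2.02 CPM per kb (CBF3). In D 2, CBF2 and CBF3 held 0 counts and CBF1 had 0.678 CPM per kb. There, Solyc05g052410, Solyc10g076370 and Solyc06g050520 had 0.314, 0.166 and 1.06 CPM per kb, so that the order of the means did not hold in each library. The ranges of the 3 DREB-type genes over the libraries overlapped, as did those of the 3 CBF genes. Such ranges do not compare genes within a library. Per kb, CBF1 was above CBF3 in every library, and above CBF2 in every library but US + D 3 (3.92 against 4.08 CPM per kb). The order of CBF2 and CBF3 changed between libraries, e.g., 23.5 against 8.00 CPM per kb in C 3 but 1.13 against 3.03 in US 1.

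Solyc05g052410 had 0.228, 0.778 and 0.396 CPM in the US libraries, 1.47, 0.376 and 0.434 in those of D and 0.379, 0.556 and 0.809 in those of US + D, against 0.446, 0.357 and 0.475 in those of C. Only D 1 exceeded 1 CPM, and all groups overlapped. The other libraries of D lay within the range of C. Within the groups, the highest library was between 1.33-fold (C) and 3.91-fold (D) above the lowest.

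Solyc10g076370 had 1.05, 0.566 and 0.283 CPM in the US libraries, 0.568, 0.203 and 2.80 in those of D and 0.542, 0.117 and 0.199 in those of US + D, against 0.0850, 0.494 and 0.199 in those of C. It was the most variable of the 3 DREB-type genes, with ranges from 3.72-fold in US to 13.8-fold in D. The value of 2.80 CPM in D 3 was the highest of any DREB-type gene, and the other libraries of D overlapped those of each other group.

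Solyc06g050520 had 0.457, 0.212 and 0.452 CPM in the US libraries, 0.516, 0.955 and 0.747 in those of D and 0.298, 0.497 and 0.855 in those of US + D, against 0.425, 0.558 and 0.693 in those of C. Its 3 libraries of D were all above its 3 libraries of US. All other pairs of groups overlapped, and the ranges within groups were between 1.63-fold (C) and 2.87-fold (US + D).

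Whether a stimulus changed these genes was asked in 6 pairwise comparisons and in the interaction of ultrasound and drought, i.e., whether the difference made by ultrasound was another one in plants given PEG. A gene was called when its edgeR p-value, adjusted by the Benjamini-Hochberg method over all tested genes, was under 0.05 with a log2 fold change beyond 0.58. None of the 6 genes was called, in any of the 7 tests, by edgeR, DESeq2 or limma voom, and the smallest of the 42 edgeR adjusted p-values was 0.44. Few genes of any kind were called by edgeR, namely 0% in US vs. C, 0.00451% in D vs. C, 0.00451% in US + D vs. C, 0% in D vs. US, 0% in US + D vs. US, 0.122% in US + D vs. D and 0% for the interaction. DESeq2 called more genes, i.e., 0.397% in US vs. C, 1.95% in D vs. C, 0.684% in US + D vs. C, 3.2% in D vs. US, 0.0634% in US + D vs. US, 3.34% in US + D vs. D and 0.504% for the interaction, but none of the 6. At an unadjusted edgeR p under 0.05, 1 of the 42 tests passed, that of the interaction for Solyc10g076370, where 6.42% of all genes did so. No member passed in US vs. C (3.84% of all genes), D vs. C (11.1%), US + D vs. C (4.88%), D vs. US (13%), US + D vs. US (3.37%) or US + D vs. D (12.6%).

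For the CBF genes, the comparisons left a wide range of differences possible. The log2 fold change of CBF1 was -0.70 (95% interval -4.75 to 3.36) in US vs. C, -1.03 (-5.11 to 3.05) in D vs. C and -1.49 (-5.62 to 2.64) in US + D vs. C, with edgeR adjusted p-values of 1, 0.872 and 1. That of CBF2 was -1.21 (-5.88 to 3.46) in US vs. C, -1.75 (-6.49 to 3.0) in D vs. C and -0.44 (-5.04 to 4.16) in US + D vs. C. For CBF3 the values were 0.87 (-3.42 to 5.16), -1.70 (-6.18 to 2.77) and 1.54 (-2.79 to 5.88) for the same comparisons. The pairwise 95% intervals of the CBF genes reached at least 4.05 and up to 4.74 on the log2 scale to either side of the estimate, and each of them included 0. The 3 comparisons against C share the control libraries.

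Between the treatments, the CBF genes also differed by less than their intervals. CBF1 had log2 fold changes of -0.33 (-4.39 to 3.72) in D vs. US, -0.79 (-4.87 to 3.29) in US + D vs. US and -0.46 (-4.53 to 3.61) in US + D vs. D. Those of CBF2 were -0.54 (-5.20 to 4.12), 0.77 (-3.88 to 5.42) and 1.31 (-3.39 to 6.01), and CBF3 had -2.57 (-7.18 to 2.03) in D vs. US and 0.67 (-3.60 to 4.95) in US + D vs. US. All edgeR adjusted p-values of these tests were 0.587 or more. The interaction was 0.24 (-5.49 to 5.97) for CBF1, 2.52 (-4.11 to 9.15) for CBF2 and 2.37 (-3.80 to 8.55) for CBF3, and each interval included 0.

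Leaving out a single library could move such an estimate by more than its size. In D vs. C, the log2 fold change of CBF1 fell to -5.64 without D 3 (unadjusted p = 0.0337, adjusted p = 0.532, edgeR) and became 0.50 without C 3. Without D 3 it was also -4.97 in D vs. US (adjusted p = 0.451). The largest pairwise estimate of a CBF gene was that of CBF3 in US + D vs. D, where it was higher by 3.25 on the log2 scale (-1.46 to 7.95, edgeR adjusted p = 0.587). This value was 0.81 without US + D 1 and 7.57 without D 3.

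The DREB-type genes had narrower intervals, of 1.09 to 2.23 on the log2 scale to either side in the pairwise comparisons. Compared to C, Solyc05g052410 differed by 0.14 (-1.25 to 1.52) in US and 0.46 (-0.91 to 1.83) in US + D, and Solyc10g076370 by 1.25 (-0.91 to 3.41) in US and 0.095 (-2.09 to 2.29) in US + D. Solyc06g050520 differed from C by -0.59 (-1.69 to 0.52) in US, 0.40 (-0.69 to 1.49) in D and -0.01 (-1.10 to 1.08) in US + D. None of these differences passed the test. For Solyc10g076370, the log2 fold change was 2.16 (-0.03 to 4.35) in D vs. C (edgeR adjusted p = 0.452) and -2.06 (-4.29 to 0.16) in US + D vs. D (adjusted p = 0.44). Its interaction was -3.32 (-6.42 to -0.22), with an unadjusted p of 0.0382 and an adjusted p of 0.751, and this was the single interval of the 42 that did not include 0. Without D 3, D vs. C was 0.57, US + D vs. D was -0.46 and the interaction was -1.71. Without C 2, D vs. C was 3.0 and the interaction was -4.16. With libraries of the compared groups left out in turn, the lowest unadjusted p was 0.0193 in D vs. C and 0.0153 for the interaction. Both came without D 2, and neither passed after adjustment (0.714 and 0.915). In limma voom with quality weights, US + D vs. D of this gene had an adjusted p of 0.146, the smallest that any of the alternatives gave for any of the 6 genes.

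Solyc06g050520 was the only one of the 6 genes whose libraries did not overlap between a pair of groups, with a log2 fold change of 0.98 (-0.14 to 2.1) in D vs. US (edgeR adjusted p = 0.452). Between D and US, 23.2% of all tested genes did not overlap, so that 1 of 6 is no more than this background. No member was without overlap in US vs. C (background 6.26%), D vs. C (19.5%), US + D vs. C (7.64%), US + D vs. US (6.97%) or US + D vs. D (22.9%). For Solyc05g052410, the log2 fold changes ranged from -0.38 in US + D vs. D (-1.75 to 1.0) to 0.84 in D vs. C (-0.54 to 2.21), and both comparisons share the libraries of D.

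**Figure D2:**
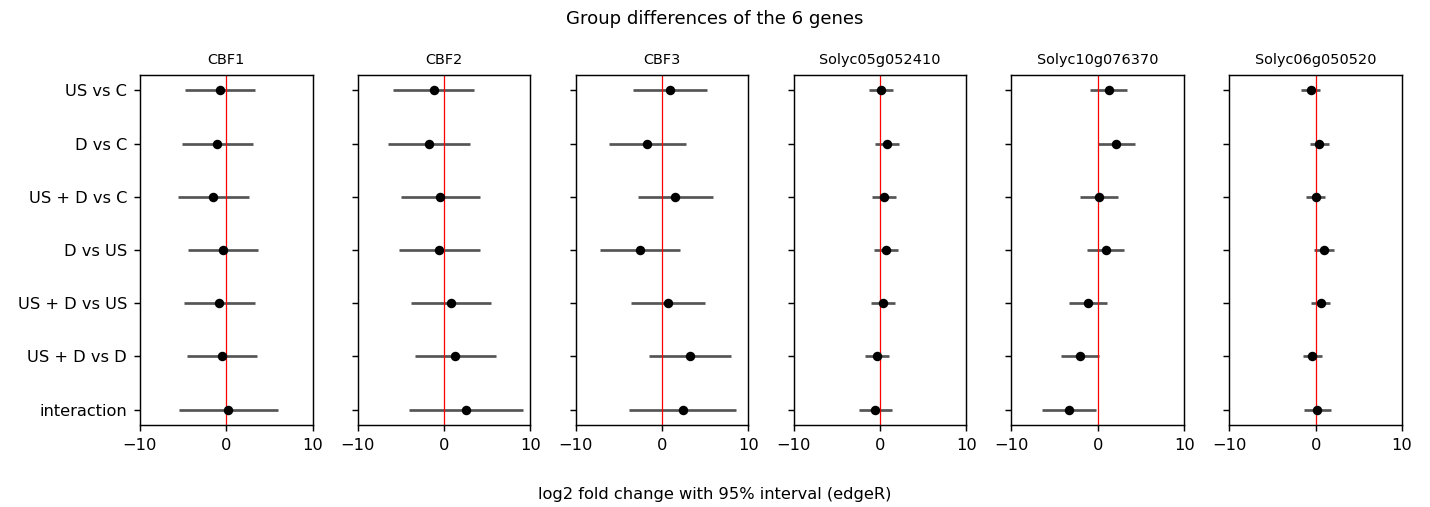
Log2 fold changes from edgeR with their 95% intervals for the 6 genes in 6 pairwise comparisons and the interaction of ultrasound and drought. The pairwise intervals of the CBF genes reach 4.05 to 4.74 to either side, those of the DREB-type genes 1.09 to 2.23, and only the interaction of Solyc10g076370 (-6.42 to -0.22) does not include 0.

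The spread between replicates was then set against that of all tested genes. The within-group SD of log2 CPM, pooled over the 4 groups, was 3.05 for CBF1, 3.79 for CBF2 and 3.17 for CBF3, compared to a median of 0.38 over the 22157 genes. Only 16 genes exceeded CBF1, among them CBF2 and CBF3, while 14 exceeded CBF3, among them CBF2, and 1 exceeded CBF2. The log2 CPM of a count of 0 is set by the prior count of 2. The SDs and ranks of CBF2 (0 counts in C 1 and D 2) and CBF3 (0 counts in D 2) therefore depend in part on it. For the DREB-type genes, the SD was 0.71 for Solyc05g052410, 1.24 for Solyc10g076370 and 0.53 for Solyc06g050520, i.e., at the 76.4th, 92.9th and 64.6th percentile, although low counts widen the spread of genes at this level. The SD of the 4 group means was 0.92 for CBF1, 1.25 for CBF2, 1.40 for CBF3 and between 0.27 and 0.79 for the DREB-type genes. Means of 3 libraries vary less than single libraries, so that the 2 measures cannot be set against each other directly.

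**Figure D3:**
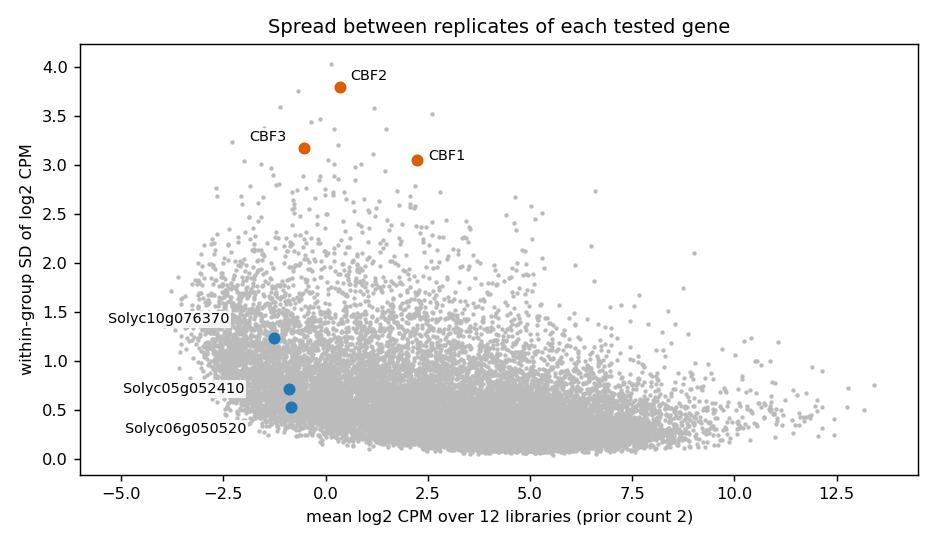
Within-group SD of log2 CPM (vertical axis) against mean log2 CPM over 12 libraries (horizontal axis, prior count of 2) for 22157 genes in grey, with the CBF genes in orange and the DREB-type genes in blue. CBF1, CBF2 and CBF3 lie at 3.05, 3.79 and 3.17, at the upper edge of the cloud, and the DREB-type genes lie at 0.53 to 1.24 inside it.

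The 3 CBF genes were high and low in the same libraries. Ordered by level, the same 7 libraries came first for all 3 genes, and the same 5 came last (US 2, D 1, D 2, US + D 2 and C 1). Both sets held libraries of all 4 groups. Replicate 3 of each group was among the 7, and the 5 were replicates 1 and 2 only. A link of the CBF levels to the replicate number was not tested. Over the 12 libraries, log2 CPM of CBF1 and CBF2 correlated with r = 0.91 and rho = 0.91 (permutation p = 0.00022 and 0.00014, adjusted p = 0.003 and 0.0029), and r was 0.89 without the 2 libraries farthest from the median of CBF1. For CBF1 and CBF3, r was 0.89 and rho 0.78 (permutation p = 0.00043 and 0.0039, adjusted p = 0.0044 and 0.032), with r = 0.86 without these libraries. For CBF2 and CBF3, r was 0.92 and rho 0.92 (permutation p = 5e-05 and 8e-05, adjusted p = 0.002 and 0.0029), with r = 0.90 without the 2 farthest. With the group means subtracted, r was 0.96, 0.94 and 0.94 for the same pairs. The p-values were adjusted over the 41 relations computed.

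The relation was looser among the 7 libraries with at least 100 CBF counts, where r was 0.70 for CBF1 and CBF2, 0.40 for CBF1 and CBF3 and 0.53 for CBF2 and CBF3. These libraries cover a narrower range of CBF levels, and the relation over all 12 rests in part on the distance to the 5 lowest. None of the 12 relations that involve a DREB-type gene passed, the smallest adjusted p being 0.47 for CBF1 and Solyc05g052410 (r = -0.49). Reads shared between the CBF copies could raise the correlation of the 3 genes if they were counted, and their part was not tested. The total count of a library had r from -0.17 to 0.40 with the 6 genes (adjusted p of 0.63 or more).

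**Figure D4:**
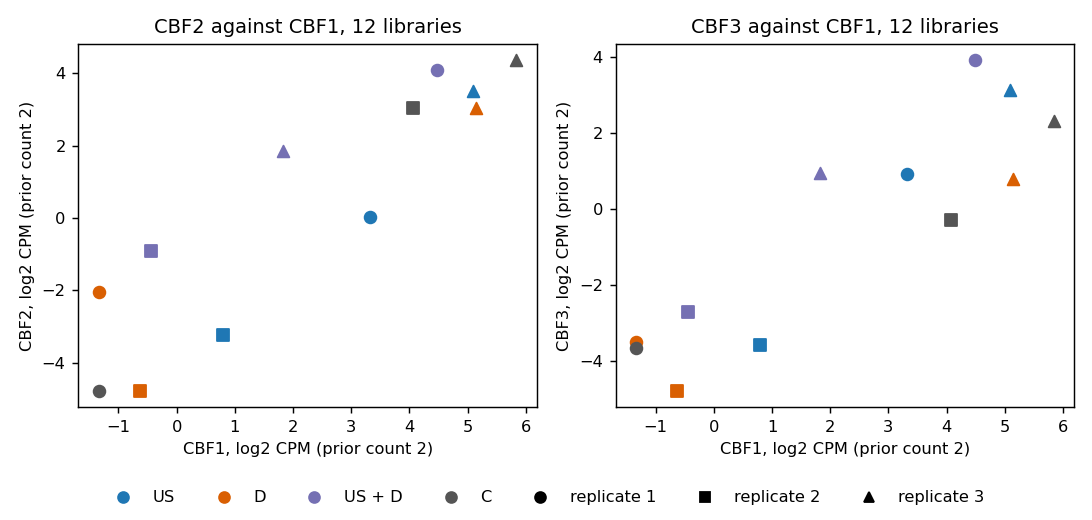
Log2 CPM of CBF2 (left) and CBF3 (right) against log2 CPM of CBF1 in the 12 libraries, with a prior count of 2, the groups as colours and the replicates as shapes. The 5 lowest libraries include at least 1 of each group, and r over all libraries is 0.91 for CBF2 and 0.89 for CBF3.

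The genes around the cluster did not share its spread. Of the 5 annotated genes on either side, 9 were tested and had a within-group SD of 0.16 to 1.15. The nearest ones, Solyc03g026260 and Solyc03g026290, had SDs of 0.52 and 0.33, and their highest library was 3.09-fold and 2.03-fold above the lowest of the 12. The most variable neighbour was Solyc03g026230, some way before the cluster, whose SD was 1.15 and whose range was 31.0-fold. All 9 were below the 3 CBF genes on this measure.

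**Figure D5:**
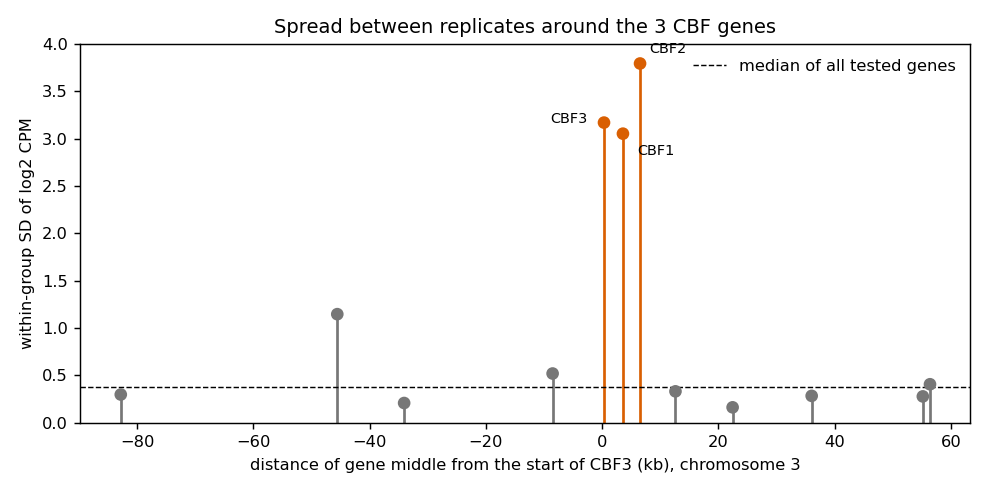
Within-group SD of log2 CPM of the 3 CBF genes (orange) and of 9 tested neighbours (grey) on chromosome 3, by the distance of the middle of each gene from the start of CBF3 in kb. The CBF genes stand at 3.05 to 3.79, the neighbours at 0.16 to 1.15, and the dashed line marks the median of all tested genes, 0.38.

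The genes most like each member over the 12 libraries were sought by the correlation of log2 CPM, as a description. For CBF1, they were Solyc05g052560 (r = 0.97), Solyc08g062690 (0.96) and Solyc05g052570 (0.96), and 27 genes in all (0.122%) had r above 0.9. For CBF2 they were Solyc01g007040 (0.96), Solyc08g083050 (0.95) and Solyc06g073850 (0.95), and for CBF3 Solyc08g083050 (0.93), CBF2 itself (0.92) and Solyc07g056000 (0.92). Solyc08g083050 was thus among the first 3 for both CBF2 and CBF3. The DREB-type genes had no partner above 0.9. Their closest were Solyc10g051080 for Solyc05g052410 (0.81), Solyc10g081930 for Solyc10g076370 (0.84) and Solyc11g065380 for Solyc06g050520 (0.90).

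Other genes of the pathway were read from lists whose identities the sources at hand do not annotate, and they are therefore given as counts. Of 12 loci listed as regulators of CBF transcription, such as ICE1, CAMTA, phytochrome and clock genes, edgeR called none in any of the 7 tests, and at an unadjusted p under 0.05 the count was 1 of 12 in US vs. C (3.84% of all tested genes), 2 in US + D vs. C (4.88%), 2 in D vs. US (13%), 1 in US + D vs. D (12.6%) and 0 in the other tests. DESeq2 called 1 of the 12, lower in US + D vs. D, where it called 3.34% of all genes in either direction. Their correlation with CBF1 over the 12 libraries was between -0.38 and 0.36, and none passed. Of 5 loci listed as dehydrins and low-temperature-induced targets, 3 could be tested. edgeR and DESeq2 called none of them, 1 of the 3 had an unadjusted p under 0.05 in D vs. C (11.1% of all genes) and 1 in D vs. US (13%), and their correlation with CBF1 was between -0.11 and 0.26. The log2 fold changes of these 3 in D vs. C ran from -0.0621 to 2.65 with a median of 0.52, and 2 of 3 were positive. Their median was -0.091 in US vs. C, 0.16 in US + D vs. C, 0.63 in D vs. US, 0.27 in US + D vs. US, whereas it was -0.36 in US + D vs. D, and the median of all tested genes was between -0.0455 and 0.0268 in these comparisons.

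Of 5 loci listed as transcription factors that respond fast to wounding or elicitors, 4 correlated with CBF1 over the 12 libraries (r = 0.72 to 0.91, adjusted permutation p under 0.05), and Solyc02g077370 did not pass (r = 0.57, adjusted p = 0.29). Of the 22156 other tested genes, 1.15% had r of at least that of the lowest of the 4, and 3.41% at least that of Solyc02g077370. The list was chosen with earlier results of these data known, so that these p-values are not independent evidence. With the group means subtracted, r of the 5 was between 0.62 and 0.93. Solyc06g068460 was closest (r = 0.91, rho = 0.85, adjusted p = 0.003 and 0.0098, and r = 0.91 without the 2 farthest libraries). The summed level of the 5 loci was 254 to 652 CPM for US, 215 to 583 for D and 178 to 615 for US + D, against 227 to 858 for C, so that the 4 groups overlapped. Neither edgeR nor DESeq2 called any of the 5 in a test, and none had an unadjusted p under 0.05. Whether they have a part in the spread of the CBF genes was not tested.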

How the data were processed

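RNA of tomato leaves was measured in 12 libraries, 3 for each of 4 groups, and the groups were taken from the sample labels. The authors used fastp to trim the read pairs, Hisat2 to place them on SL4.0 and FeatureCounts to assign them to ITAG4.0 genes, and deposited raw counts, which are whole numbers. Strand and multi-mapping settings are not given in the sources used here. The number of value columns not assigned to a library was 0.

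For all tests, edgeR (4.0.16, under R 4.3.3) took the counts as they were. After filterByExpr and TMM scaling, all 12 libraries entered 1 quasi-likelihood fit, in which each group had its own mean. Standard errors were taken from the fold change and the F statistic and are approximate. Exact tests of 3 against 3 libraries stop at a two-sided p of 0.1 and were not used for single genes. Log2 CPM used a prior count of 2. Correlations were tested with 100000 permutations made in numpy (2.4.6), with ranks from scipy (1.17.1), which also gave the exact permutation test. Alternatives were DESeq2 (1.42.0), voom in limma (3.58.1) with weights for library quality, RLE, no filter, at least 10 counts in at least 6 libraries, a robust fit, thinning to the smallest library, only the compared groups, a replicate block and leaving out each library. Single libraries were left out of the compared groups only, i.e., of all 4 groups for the interaction. Leaving out the 3 deepest libraries was added after the data were seen. No pair of replicates agreed within sampling noise (chi-square per degree of freedom from 47.3 to 823).

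The genes named are the 6 of the list, the 3 genes most correlated with each, the neighbours of the cluster and listed loci. Members and lists were chosen with earlier results of these data known. A list of further DREB genes by annotation stayed empty, since no annotation matched the identifiers. Sequences and exon structure were not analysed here. The fits were tested on simulated data, with changes set only in D vs. C and only in genes of higher mean CPM than the DREB-type genes. The simulation therefore does not cover the DREB-type genes or the interaction.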

Additional observations from a re-analysis of the deposited data

How the results depend on the processing

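The number of members called stayed at 0 in each of the 7 tests under all alternatives. The 42 fold changes had 702 alternative values, of which 623 kept their sign and 79 took the other, none of them past the threshold. The cause of these changes was not tested.

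With limma voom with quality weights, log2 fold changes of the other sign were 1.68 (CBF1) and 2.18 (CBF2) in US vs. C, 0.31 (CBF1) and 1.92 (CBF2) in D vs. C, 0.99 (CBF1), 4.79 (CBF2) and 0.59 (Solyc06g050520) in US + D vs. C, and 0.68 (CBF1), 0.0708 (Solyc05g052410) and 0.13 (Solyc06g050520) in US + D vs. D, and the interaction was -1.0 for CBF1 and 0.059 for Solyc05g052410. For Solyc06g050520 in US + D vs. C, where the main value was -0.01, DESeq2 gave 0.0148, RLE 0.0011, the compared groups alone 0.0075 and thinning 0.28, and thinning gave an interaction of -0.042. Without the 3 deepest libraries, which left C with 1 library that was assumed to vary like the other groups and that held 0 counts of CBF2, the values were 5.39 (CBF1) and 10.34 (CBF2) in US vs. C, 5.06 (CBF1), 9.80 (CBF2) and 3.71 (CBF3) in D vs. C, 4.98 (CBF1) and 11.43 (CBF2) in US + D vs. C and -0.0041 (Solyc05g052410) in US + D vs. US, and the interactions were -5.46 (CBF1), -8.71 (CBF2), -2.62 (CBF3) and -0.70 (Solyc06g050520).

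Replicate numbers were not taken as pairing the libraries, since 9 of 18 pairs of the same number had correlated deviations over 0.1 and the others did not (r from -0.40 to 0.75, against -0.64 to 0.55 for pairs of other numbers). As a hint from the data, 7 of 12 libraries were closest to one of their own number. The number to expect without pairing, and the count over 0.1 among the 36 pairs of other numbers, were not computed. With the replicate block, the number of members called was 0 in each test, and CBF3 in US vs. C was -0.58, Solyc10g076370 in US + D vs. C was -0.10, and CBF1 was 0.11 in US + D vs. US while in US + D vs. D it was 1.18.

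Each library of the compared groups was left out in turn, i.e., every library for the interaction. The ranges that crossed 0 in US vs. C were -2.08 to 0.85 (CBF1), -4.17 to 0.0355 (CBF2), -1.01 to 3.05 (CBF3) and -0.44 to 0.47 (Solyc05g052410). In D vs. C they were -5.64 to 0.50 (CBF1), -6.02 to 0.45 (CBF3) and -0.0705 to 1.16 (Solyc05g052410), and in US + D vs. C -3.49 to 0.0251 (CBF1), -2.18 to 0.77 (CBF2), -0.88 to 3.68 (CBF3), -0.67 to 0.93 (Solyc10g076370) and -0.50 to 0.31 (Solyc06g050520). In D vs. US they were -4.97 to 1.05 (CBF1), -5.25 to 2.42 (CBF2), -0.21 to 1.29 (Solyc05g052410) and -0.68 to 1.48 (Solyc10g076370). In US + D vs. US they were -2.82 to 0.59 (CBF1), -1.01 to 3.73 (CBF2), -1.79 to 2.56 (CBF3) and -0.0075 to 0.92 (Solyc05g052410), in US + D vs. D -2.47 to 4.15 (CBF1), -0.45 to 5.98 (CBF2) and -0.70 to 0.53 (Solyc05g052410), and for the interaction -1.80 to 4.82 (CBF1), -0.10 to 6.66 (CBF3), -0.84 to 0.39 (Solyc05g052410) and -0.31 to 0.47 (Solyc06g050520). The ranges that kept their sign were, for CBF2, -6.42 to -0.53 in D vs. C and 0.73 to 7.15 for the interaction, and for CBF3, -6.93 to -0.69 in D vs. US and 0.81 to 7.57 in US + D vs. D. They were 0.13 to 0.72 for Solyc05g052410 in US + D vs. C. For Solyc06g050520 they were -0.76 to -0.29 in US vs. C, 0.17 to 0.60 in D vs. C, 0.71 to 1.18 in D vs. US, 0.0881 to 0.89 in US + D vs. US and -0.89 to -0.11 in US + D vs. D. For Solyc10g076370 they were 0.68 to 2.09 in US vs. C, 0.57 to 3.0 in D vs. C, -1.92 to -0.58 in US + D vs. US, -2.84 to -0.46 in US + D vs. D and -4.16 to -1.71 for the interaction. Of these, the lowest values of CBF2 and CBF3 came without D 3 (D vs. C, D vs. US) or US + D 1 (US + D vs. D, interaction), and the highest without C 3 (D vs. C), US 3 (D vs. US) or D 3 (US + D vs. D, interaction).

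With 3 libraries a group, changes smaller than the half-width of the intervals given were not detectable. This held for the DREB-type genes, with their low counts, and for the CBF genes. To either side, the pairwise intervals reached 1.09 to 2.23 (DREB-type genes) and 4.05 to 4.74 (CBF genes) on the log2 scale. The intervals are not adjusted over all tested genes, and estimates beyond their half-width were not called either. The interaction of Solyc10g076370 was -3.32 (edgeR adjusted p = 0.751). CBF1 in D vs. C without D 3 was -5.64 (edgeR adjusted p = 0.532).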

Other observations

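The make-up of the CBF counts differed between libraries. CBF3 held 14.6% (95% Wilson interval 11.9 to 17.7) and 16.2% (14.6 to 17.9) of the counts of the 3 CBF genes in US 1 and US 3, 3.78% (3.0 to 4.74) in D 3, and 27.6% (25.7 to 29.6) and 21.2% (18.5 to 24.2) in US + D 1 and US + D 3, against 3.07% (2.50 to 3.78) and 6.00% (5.52 to 6.52) in C 2 and C 3. In these 7 libraries, each with at least 100 CBF counts, the share was higher in every library that had received ultrasound than in every one that had not. In the other 5 libraries the 3 genes held 19 to 77 counts together, and the share was 2.60% (0.715 to 8.98) in US 2, 8.33% (2.32 to 25.8) in D 1, 0% (0 to 15.5) in D 2, 8.89% (3.51 to 20.7) in US + D 2 and 10.5% (2.94 to 31.4) in C 1, where the order did not hold. Over all 12 libraries, log2 CPM of CBF3 minus that of CBF1 averaged -2.07 ± 1.35 with ultrasound (US and US + D) and -3.47 ± 0.995 without (D and C, SD, n = 6 each), a difference of 1.40 that did not pass (exact permutation test, two-sided p = 0.0866). The comparison was chosen after the values had been seen. In the 5 libraries with few CBF counts, CBF3 itself held 0 (D 2) to 4 counts (US + D 2). Their log2 differences therefore depend on the prior count of 2.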
